A study of Mus musculus with 9 samples.

Results

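The genes described here are 10 genes of the WNT pathway, namely the receptors Lgr4, Lgr5 and Lgr6, the membrane E3 ubiquitin ligases Rnf43 and Znrf3, the cytoplasmic inhibitors Axin2 and Nkd1, and the DNA-binding factors Lef1, Tcf7l1 and Tcf7l2. They were taken by their Ensembl identifiers from the 48526 genes of the count table, and the set was chosen with earlier results of these data known. All 10 were found, and 9 had enough counts to be tested among 18858 tested genes, Lef1 being the exception. The libraries came from neural stem cells (NSCs) isolated from the subependymal zone (SEZ), a neurogenic niche beside the lateral ventricles, of adult mice labelled C57BL/6 (in the methods, wild-type C57BL/6J aged from 2 to 4 months) and grown in culture. The libraries, 9 in all, stand for 3 times after differentiation was induced (0 h, 1 h or 6 h), each with 3 replicates. Differentiation was started by the absence of EGF on an adhesive substrate, in a medium that by the methods still held FGF. No libraries were kept with EGF to 1 h or 6 h. The absence of EGF and the time in culture thus cannot be told apart. The methods say that cells fixed soon after induction had first been plated with EGF, and whether this also held for the RNA libraries is not given in the sources used here. All groups shared the strain and the origin of the cells, and the 0 h libraries, which carry the same treatment label as the others, served as the starting point. The labels do not state whether the replicates were separate cultures or animals, so the spread behind the p-values may be technical. In the main tests that spread is what was left once differences between times and between replicate numbers were removed. In tests that ignored the replicate number, it also held the differences between numbers.

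WNT proteins bind Frizzled receptors together with LRP5 or LRP6, and the signal holds back a destruction complex that otherwise marks beta-catenin for degradation. Beta-catenin then enters the nucleus and acts through factors of the TCF/LEF family. Several of the genes that are switched on in this way limit the signal themselves. AXIN2 is a scaffold of the destruction complex, NKD1 binds Dishevelled, and RNF43 and ZNRF3 remove Frizzled receptors from the membrane. R-spondins bind LGR4, LGR5 and LGR6 and clear RNF43 and ZNRF3, which raises the sensitivity of a cell to WNT. In the adult brain, WNT signalling is known to act on the proliferation of NSCs and on the birth of neurons.

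Values are given as CPM, the counts of a gene per 1000000 scaled counts of its library. Libraries held from 65871454 to 105592597 counts, and the scaling factors (TMM) were between 0.972 and 1.02. Fold changes were tested with edgeR on all 9 libraries with the replicate number as a block, so that each library was compared with the libraries of the same number. This matters here because libraries with the same number deviated together, with a correlation between 0.733 and 0.800. P-values were adjusted by the method of Benjamini-Hochberg across 18858 genes, and a gene called changed had an adjusted p under 0.05. Since 0 h enters both comparisons with it and 1 h and 6 h each enter 2, the comparisons share libraries and are given side by side.

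At 1 h against 0 h, 1 of the 9 tested genes changed, Axin2, which fell. Over all tested genes, 3.51% passed the test in this comparison, 1.36% higher and 2.14% lower. At 6 h against 0 h, 4 of 9 changed, with Nkd1 higher and Lgr5, Lgr6 and Tcf7l2 lower, beside 34.9% of all tested genes (17.4% higher and 17.5% lower). At 6 h against 1 h, 6 of 9 changed, with Axin2 and Rnf43 higher and Lgr5, Lgr6, Znrf3 and Tcf7l2 lower, beside 35.6% of all tested genes. The median log2 fold change of the 9 genes was 0.06, -0.07 and -0.13 in the 3 comparisons, and that of all tested genes was 0.00066, -7.8e-05 and -0.00093. Regardless of sign, the median change was 0.12, 0.22 and 0.31 for the 9 genes and 0.11, 0.20 and 0.21 for all tested genes.

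The calls rest largely on the block. Without it, edgeR called 0 of the 9 genes at 1 h against 0 h (1 at an unadjusted p under 0.05), 0 at 6 h against 0 h (2 at an unadjusted p under 0.05) and 1 at 6 h against 1 h, which was Axin2. DESeq2 with the block called 2, 4 and 6 of the 9 genes, beside 929, 6126 and 6285 of the 18858 tested genes. It gave no adjusted p for Lgr6 and Rnf43 at 1 h against 0 h, so these could not be called there. DESeq2 without the block called 1 of the 9 in each comparison, beside 99, 1742 and 1695 of all tested genes. Over all tested genes, the percentages without the block in edgeR were 0.0424%, 2.42% and 2.14%.

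**Figure D1:**
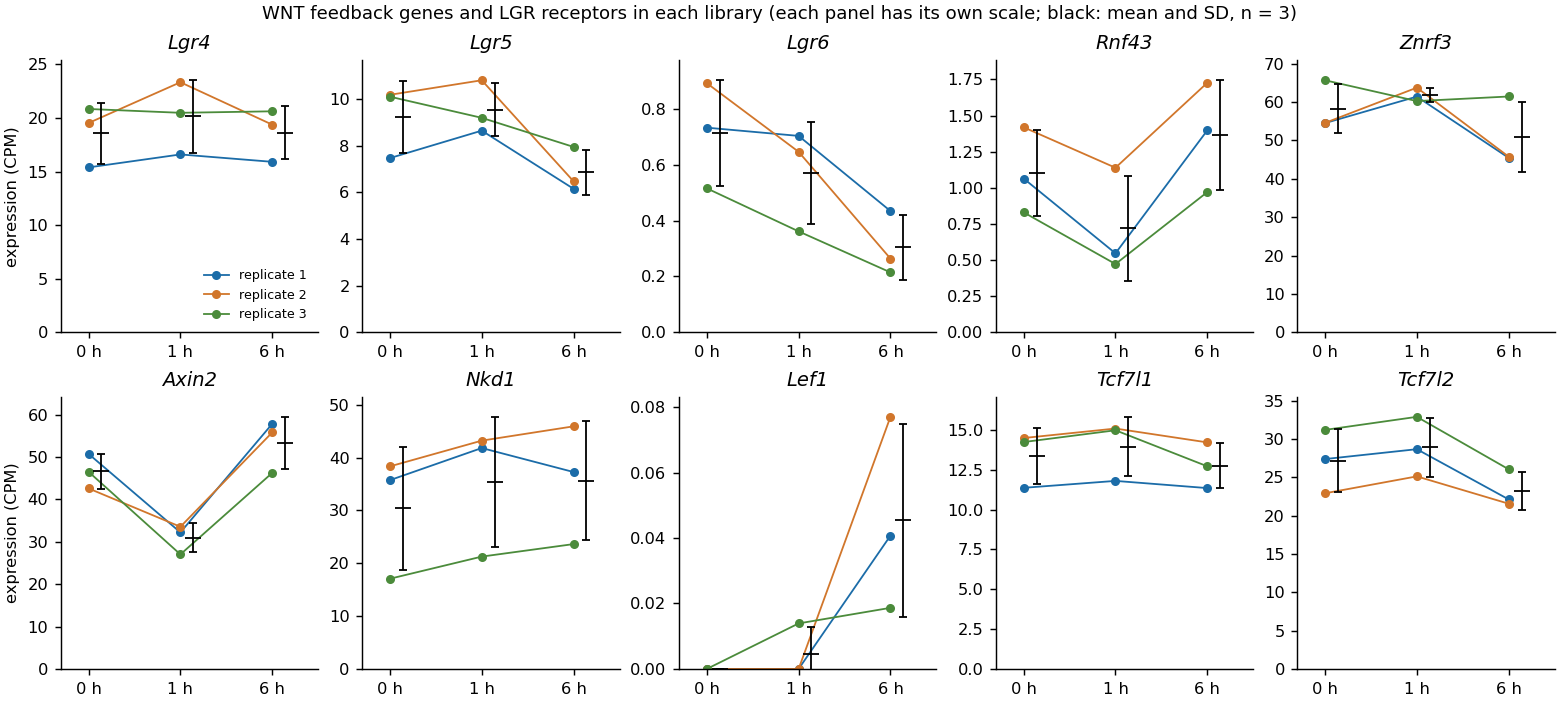
CPM (vertical axis, a scale of its own in each panel) against time of differentiation (horizontal axis, evenly spaced) for the 10 genes, with a coloured line for each replicate number and black bars for the mean and SD of 3 libraries. Axin2 dipped at 1 h in all 3 replicates, Lgr6 was lowest at 6 h in all 3, Nkd1 was far lower in replicate 3 at each time, and Lef1 did not exceed 7 counts in any library.

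**Figure D2:**
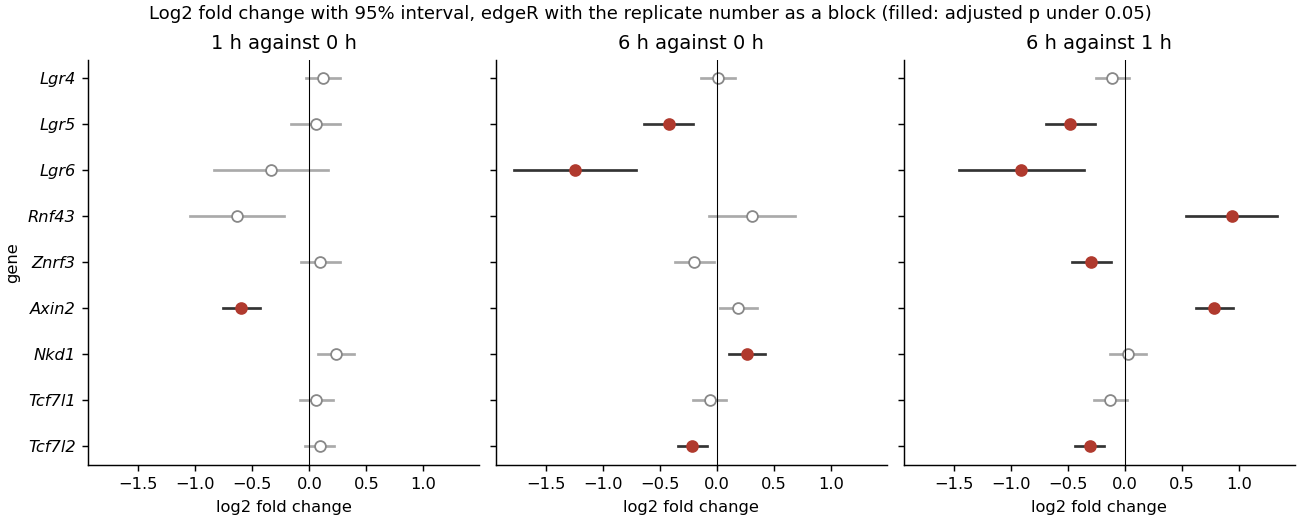
Log2 fold change (horizontal axis) of the 9 tested genes (vertical axis) in the 3 comparisons, with 95% intervals from edgeR with the replicate number as a block. Filled points passed an adjusted p of 0.05, which 1, 4 and 6 of the 9 genes did from left to right.

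The region upstream of a gene is where transcription factors can bind to change its output, so the stretches before the start of 3 genes are shown, Axin2 because it was the only tested gene of the set to change by 1 h, Lgr6 because its fall by 6 h had the largest log2 fold change of the 9 tested, and Lgr4 as a receptor of the same family that passed in no comparison. They are the 250 bases before the RefSeq start in the build GRCm38.p6, written 5′ to 3′ on the strand of the gene, at chr11:108920099-108920348 on the plus strand for Axin2, chr1:135105277-135105526 on the minus strand for Lgr6 and chr2:109917397-109917646 on the plus strand for Lgr4. Capitals mark the GC box (GGGCGG) and the CCAAT box (CCAAT) on either strand.
Axin2: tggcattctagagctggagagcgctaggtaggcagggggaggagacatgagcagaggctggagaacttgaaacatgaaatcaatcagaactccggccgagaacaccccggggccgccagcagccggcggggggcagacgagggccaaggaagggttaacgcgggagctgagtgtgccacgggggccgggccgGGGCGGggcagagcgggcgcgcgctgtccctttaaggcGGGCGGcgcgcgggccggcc
Lgr6: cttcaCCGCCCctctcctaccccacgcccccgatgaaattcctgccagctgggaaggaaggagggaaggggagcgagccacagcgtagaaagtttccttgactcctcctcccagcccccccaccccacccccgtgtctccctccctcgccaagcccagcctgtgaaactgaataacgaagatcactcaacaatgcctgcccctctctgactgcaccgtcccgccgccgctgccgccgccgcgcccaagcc
Lgr4: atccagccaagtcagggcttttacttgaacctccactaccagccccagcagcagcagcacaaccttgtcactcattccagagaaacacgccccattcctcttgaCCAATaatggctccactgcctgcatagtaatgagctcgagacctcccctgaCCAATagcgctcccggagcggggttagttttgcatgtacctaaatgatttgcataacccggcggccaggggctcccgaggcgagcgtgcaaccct
The Axin2 stretch had 69.2% GC, 24 CpG and 2 GC boxes, that of Lgr6 65.2% GC, 16 CpG and 1 GC box, and that of Lgr4 55.6% GC, 10 CpG and 2 CCAAT boxes. Over the 32851 stretches of the same length in the RefSeq table, the median was 52.4% GC and 6 CpG, 32.7% held a GC box and 33.8% a CCAAT box. The core letters of a TCF/LEF site, CTTTGAT or CTTTGAA on either strand, were in none of the 13 stretches of the 8 genes with an entry, some of which overlap, and in 7.48% of all. These matches are descriptions of letters, and no factor was measured.

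The LGR receptors are transmembrane receptors for R-spondins, and Lgr5 is widely used as a marker of stem cells in the intestine and the hair follicle. Lgr5 and Lgr6 were lower at 6 h than at 0 h and 1 h, while Lgr4, the most abundant of the 3, passed the test in no comparison.

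Lgr5 (ENSMUSG00000020140, chr10:115450311-115587780, GRCm38) was at 7.47, 10.2 and 10.1 CPM in replicates 1, 2 and 3 at 0 h, at 8.64, 10.8 and 9.19 CPM at 1 h, and at 6.15, 6.47 and 7.94 CPM at 6 h. Every 6 h library lay below every 1 h library and below the 0 h library of its own number, although the highest 6 h value exceeded the lowest 0 h value. The means in order of time were 9.25 ± 1.54, 9.54 ± 1.12 and 6.85 ± 0.957 CPM (SD, n = 3). Lgr5 fell by 0.42 on the log2 scale from 0 h to 6 h (SE 0.10, edgeR, Benjamini-Hochberg adjusted p = 0.00511, lower in 3 of 3 replicates). From 1 h to 6 h it fell by 0.48 (SE 0.10, edgeR, Benjamini-Hochberg adjusted p = 0.00243, lower in 3 of 3). The log2 fold change of 1 h against 0 h was 0.05, with a 95% interval from -0.16 to 0.27. Without the block, the edgeR adjusted p was 0.229 at 6 h against 0 h and 0.190 at 6 h against 1 h. The call for the 0 h comparison was also lost when replicate 2 of 6 h was left out (log2 fold change -0.29, edgeR adjusted p = 0.0506), and both calls were lost when the 3 libraries of replicate 2 were left out.

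Lgr6 (ENSMUSG00000042793, chr1:134983301-135105276) was a low gene, with between 23 and 66 counts per library. It was at 0.733, 0.892 and 0.516 CPM at 0 h in replicates 1, 2 and 3, at 0.703, 0.646 and 0.362 CPM at 1 h, and at 0.434, 0.264 and 0.215 CPM at 6 h. The 6 h libraries were all below the 0 h libraries, with no overlap, and within each replicate number the value went down at each step. Mean levels were 0.713 ± 0.189, 0.570 ± 0.183 and 0.304 ± 0.115 CPM (SD, n = 3). The fall by 6 h against 0 h had a log2 fold change of -1.25 (SE 0.25, 95% interval -1.78 to -0.71, edgeR, Benjamini-Hochberg adjusted p = 0.00179). This call was kept whichever library was left out, and was lost without the block (edgeR adjusted p = 0.129). Relative to 1 h, the log2 fold change was -0.91 (SE 0.25, edgeR, Benjamini-Hochberg adjusted p = 0.0139), and the call was lost when replicate 1 or 2 of 1 h or replicate 2 of 6 h was left out (adjusted p up to 0.0996) and without the block (0.254). For 1 h against 0 h it was -0.34, with an interval from -0.84 to 0.17, which did not pass.

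Lgr4 (ENSMUSG00000050199, chr2:109917647-110014257) was at 15.4, 19.5 and 20.8 CPM at 0 h, at 16.6, 23.3 and 20.5 CPM at 1 h and at 15.9, 19.4 and 20.6 CPM at 6 h in replicates 1, 2 and 3. Replicate 1 was the lowest at each time, and the groups overlapped throughout. The log2 fold changes were 0.12 (95% interval -0.03 to 0.27) at 1 h against 0 h, 0.01 (-0.14 to 0.16) at 6 h against 0 h and -0.11 (-0.26 to 0.04) at 6 h against 1 h. Whether Lgr4 differed from Lgr5 in its change was not tested.

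R-spondins, the ligands of these receptors, were scarce in the same libraries. Rspo1 and Rspo3 had a mean of 0.418 and 0.0693 CPM, and Rspo2 and Rspo4 were too low to be tested, with at most 8 and 10 counts in a library. Of these 4 genes, named after their values were seen, Rspo1 rose by 6 h against 0 h (log2 fold change 1.46, edgeR, Benjamini-Hochberg adjusted p = 0.00175) and did not pass without the block.

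Rnf43 and Znrf3 encode paired E3 ligases that mark Frizzled receptors for removal. From 1 h to 6 h they passed the test in opposite directions, Rnf43 higher and Znrf3 lower, and neither passed at 1 h or 6 h against 0 h.

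Rnf43 (ENSMUSG00000034177, chr11:87662722-87735539) was at 1.06, 1.42 and 0.831 CPM at 0 h in replicates 1, 2 and 3, at 0.547, 1.14 and 0.473 CPM at 1 h, and at 1.40, 1.73 and 0.971 CPM at 6 h. In each replicate number the lowest value was at 1 h and the highest at 6 h, but the numbers differed so much that the groups overlapped. The mean levels were 1.10 ± 0.296, 0.720 ± 0.365 and 1.37 ± 0.379 CPM (SD, n = 3), from 34 to 157 counts per library. Rnf43 rose from 1 h to 6 h with a log2 fold change of 0.93 (SE 0.18, 95% interval 0.54 to 1.33, edgeR, Benjamini-Hochberg adjusted p = 0.00169, higher in 3 of 3). This call was kept whichever library or replicate number was left out, and was lost without the block (edgeR adjusted p = 0.269). Already at 1 h the log2 fold change against 0 h was -0.63 (SE 0.19, lower in 3 of 3), which did not pass (edgeR, Benjamini-Hochberg adjusted p = 0.0993) except when no filter on low counts was used (0.0303). DESeq2 with the block gave no adjusted p for Rnf43 in this comparison. By 6 h the log2 fold change was 0.30 (SE 0.18, interval -0.08 to 0.68).

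Znrf3 (ENSMUSG00000041961, chr11:5276324-5444847) was at 54.5, 54.6 and 65.7 CPM at 0 h, at 61.4, 63.8 and 60.3 CPM at 1 h, and at 45.5, 45.8 and 61.5 CPM at 6 h in replicates 1, 2 and 3. Replicates 1 and 2 were clearly lower at 6 h, while replicate 3 was at 6 h close to its 1 h value and slightly above it. Means were 58.3 ± 6.43, 61.8 ± 1.78 and 50.9 ± 9.14 CPM (SD, n = 3). Znrf3 fell by 0.30 on the log2 scale from 1 h to 6 h (SE 0.08, edgeR, Benjamini-Hochberg adjusted p = 0.0118, lower in 2 of 3). That call was lost when replicate 1 or 2 of either time was left out (adjusted p up to 0.102), and without the block (0.316). Against 0 h the log2 fold change at 6 h was -0.20 (SE 0.08, lower in 3 of 3), which did not pass (edgeR, Benjamini-Hochberg adjusted p = 0.0705), although it did when the 1 h libraries were not in the fit (0.00654), with no filter on low counts (0.0142) and with trends in GC content and length removed (0.0163). Leaving out single libraries gave values from -0.31 to -0.13, and the test was passed without replicate 3 of 1 h or of 6 h.

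Axin2 is the most commonly used readout of beta-catenin activity, since it is both a target of the pathway and part of the complex that restrains it. It fell by 1 h and rose again by 6 h, when its difference from 0 h did not pass the test.

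Axin2 (ENSMUSG00000000142, chr11:108920349-108950783) was at 50.8, 42.6 and 46.5 CPM at 0 h in replicates 1, 2 and 3. After 1 h it was at 32.2, 33.6 and 27.0 CPM, and at 6 h at 57.8, 55.8 and 46.3 CPM. The 1 h libraries were all below those of the other times, with no overlap, whereas the 6 h values overlapped the 0 h values through replicate 3. Mean levels were 46.6 ± 4.08, 30.9 ± 3.45 and 53.3 ± 6.18 CPM (SD, n = 3). The log2 fold change at 1 h against 0 h was -0.60 (SE 0.08, 95% interval -0.76 to -0.43, edgeR, Benjamini-Hochberg adjusted p = 0.000723, lower in 3 of 3). Leaving out any library or replicate number kept this call, with the edgeR adjusted p at most 0.00824, and the fit without the block lost it (0.416), while DESeq2 without the block kept it.

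From 1 h to 6 h Axin2 rose with a log2 fold change of 0.78 (SE 0.07, 95% interval 0.62 to 0.94, edgeR, Benjamini-Hochberg adjusted p = 7.1e-06, higher in 3 of 3). This was the only call among the 10 genes that edgeR also made without the block (adjusted p = 0.0214). Compared with 0 h, the log2 fold change at 6 h was 0.19 (SE 0.07, interval 0.03 to 0.35, higher in 2 of 3), which did not pass (edgeR, Benjamini-Hochberg adjusted p = 0.0666), but did pass with library totals alone (0.0408), with no filter on low counts (0.0107) and when the 1 h libraries were not in the fit (0.0250). It was 0.11 once GC and length trends were removed (0.232). Leaving out single libraries gave values from 0.08 to 0.28, and the test was passed in 4 of these 9 fits, without replicate 3 of any time or without replicate 2 of 1 h. Exons of Axin2 overlap those of Gm11670 on the other strand, and whether the counting used the strand is not given in the sources used here, so reads in the overlap could belong to either gene.

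Nkd1 (ENSMUSG00000031661, chr8:88521354-88594884), which encodes a Dishevelled-binding inhibitor of the pathway, differed more between replicate numbers than between times. It was at 35.7, 38.3 and 17.1 CPM at 0 h in replicates 1, 2 and 3, at 41.8, 43.2 and 21.3 CPM at 1 h, and at 37.3, 45.9 and 23.6 CPM at 6 h. The replicate 3 libraries were the lowest at every time, so that the groups overlapped, and within each number both later times were above 0 h. Mean levels were 30.4 ± 11.6, 35.4 ± 12.3 and 35.6 ± 11.2 CPM (SD, n = 3). Nkd1 rose by 6 h against 0 h with a log2 fold change of 0.26 (SE 0.07, interval 0.11 to 0.42, edgeR, Benjamini-Hochberg adjusted p = 0.0126, higher in 3 of 3). The call was lost when replicate 3 of 0 h or replicate 2 or 3 of 6 h was left out (adjusted p up to 0.100), and without the block (0.846). By 1 h the log2 fold change was 0.23 (SE 0.07, higher in 3 of 3), which did not pass (edgeR, Benjamini-Hochberg adjusted p = 0.103). It passed in DESeq2 with the block (0.0408), in edgeR with no filter on low counts (0.0166) and in edgeR when replicate 3 of 6 h was left out (0.0466). Between 1 h and 6 h it was 0.03, with an interval from -0.13 to 0.18.

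The TCF/LEF factors bind the DNA through which beta-catenin acts. Tcf7l2 was lower at 6 h, Tcf7l1, which mostly acts as a repressor, passed in no comparison, and Lef1, which is itself a target of the pathway in many tissues, was almost undetected.

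Tcf7l2 (ENSMUSG00000024985, chr19:55741820-55933654) was at 27.4, 22.9 and 31.2 CPM at 0 h, at 28.7, 25.1 and 32.9 CPM at 1 h, and at 22.1, 21.6 and 26.1 CPM at 6 h in replicates 1, 2 and 3. The order of the replicate numbers was the same at each time, with replicate 3 highest, and the 6 h value was the lowest of its number in all 3, although the groups overlapped. Mean levels were 27.2 ± 4.14, 28.9 ± 3.89 and 23.2 ± 2.45 CPM (SD, n = 3). Tcf7l2 fell by 0.22 on the log2 scale from 0 h to 6 h (SE 0.06, edgeR, Benjamini-Hochberg adjusted p = 0.0120), a call that was lost when replicate 1 or 3 of 0 h or replicate 1 of 6 h was left out (adjusted p up to 0.0850). From 1 h to 6 h it fell by 0.31 (SE 0.06, edgeR, Benjamini-Hochberg adjusted p = 0.00143), which was kept whichever library was left out. Neither was called without the block (edgeR adjusted p = 0.493 and 0.316). The log2 fold change of 1 h against 0 h was 0.09, with an interval from -0.04 to 0.22.

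Tcf7l1 (ENSMUSG00000055799, chr6:72626378-72789254) was at 11.4, 14.5 and 14.2 CPM at 0 h in replicates 1, 2 and 3, at 11.8, 15.1 and 14.97 CPM at 1 h, and at 11.3, 14.2 and 12.7 CPM at 6 h. Replicate 1 was the lowest at each time, and the groups overlapped. The log2 fold changes were 0.06 (95% interval -0.08 to 0.21) at 1 h against 0 h, -0.07 (-0.21 to 0.08) at 6 h against 0 h and -0.13 (-0.27 to 0.02) at 6 h against 1 h. Once GC and length trends were removed from each library, the log2 fold change was -0.20 at 6 h against 0 h and -0.21 at 6 h against 1 h, and both passed (edgeR, Benjamini-Hochberg adjusted p = 0.0237 and 0.0153). Its exons overlap those of Gm15401 on the other strand.

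Lef1 (ENSMUSG00000027985, chr3:131110471-131224356) had 0 counts in each of the 3 libraries at 0 h. At 1 h it had 0, 0 and 1 count in replicates 1, 2 and 3, and at 6 h 3, 7 and 2 counts. The sums over the libraries of a time were 0, 1 and 12. A count of 0 allows up to 3 counts per library, which stood for between 0.0280 and 0.0469 CPM here, and 2 of the 3 libraries at 6 h were at or under it. Lef1 was not tested and no fold is given. Its exons overlap those of Gm43352 on the other strand. Fewer cells that make a transcript and less RNA in each cell cannot be told apart in bulk libraries, which holds for Lef1 and for each gene above.

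Per length of transcript, the 9 tested genes spanned a wide range at 0 h. Axin2 (8.47 ± 0.740 CPM per kb of merged exons), Znrf3 (7.38 ± 0.815) and Nkd1 (6.66 ± 2.54) were the highest, and the ranges of neighbours in this order overlapped. Tcf7l1 (3.41 ± 0.442), Lgr4 (3.16 ± 0.484) and Tcf7l2 (3.10 ± 0.472) followed and also overlapped each other, without overlap between the lowest Nkd1 and the highest Tcf7l1 library. Lgr5 was lower than each of them at 0.901 ± 0.150 CPM per kb, and Rnf43 (0.168 ± 0.0452) and Lgr6 (0.104 ± 0.0276) were the lowest and overlapped each other. Thus within the LGR family Lgr4 had the highest level and Lgr6 the lowest, and of the paired ligases Znrf3 was far above Rnf43. Merged exons take in all annotated isoforms, including those that may not be used in these cells, so a level per kb can understate a gene with long alternative ends.

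**Figure D3:**
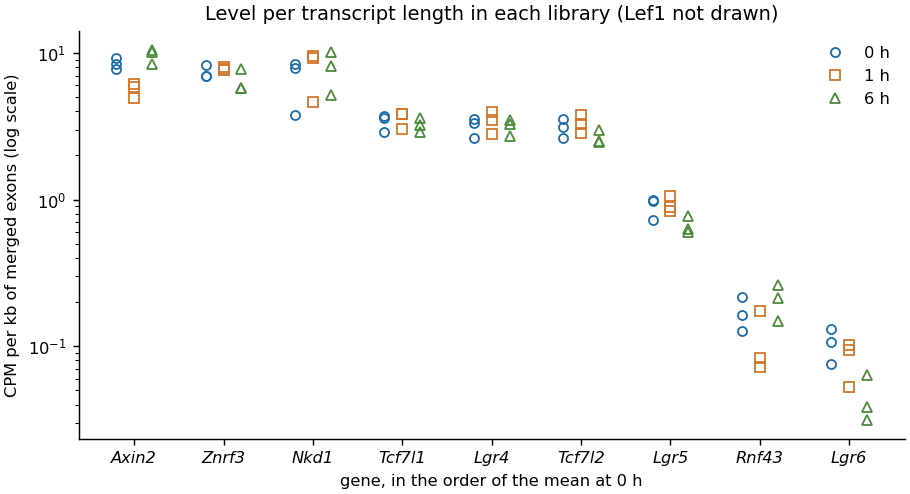
CPM per kb of merged exons (vertical axis, log scale) of the 9 tested genes (horizontal axis, in the order of the mean at 0 h) in each of the 9 libraries, with circles for 0 h, squares for 1 h and triangles for 6 h. Axin2, Znrf3 and Nkd1 sit at the top, Lgr5 stands apart below Tcf7l2, and Rnf43 and Lgr6 lie at the bottom.

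The spread of log2 CPM over the 9 libraries was divided into shares for the time point, the replicate number and the remainder, as a description. Time took 87.3% for Axin2, 64.1% for Lgr6, 61.4% for Lgr5 and 49.8% for Rnf43, beside a median of 26.9% over all tested genes. The replicate number took 91.6% for Nkd1, 85.0% for Tcf7l1 and 84.1% for Lgr4, beside a median of 48.9%. Znrf3 (43.9% time and 29.8% number) had the largest remainder of the 9, 26.3%, and Tcf7l2 had 41.1% for time and 55.2% for the number. The genes thus fell between Axin2, which followed time almost alone, and Nkd1, which followed the replicate number almost alone.

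**Figure D4:**
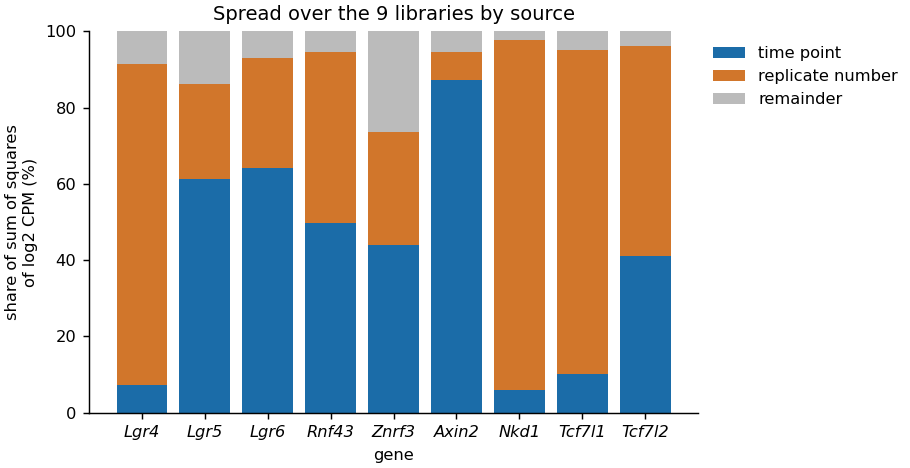
Share of the sum of squares of log2 CPM (vertical axis, percent) for each of the 9 tested genes (horizontal axis), divided into time point (blue), replicate number (orange) and remainder (grey). The blue part is tallest for Axin2 at 87.3% and the orange part for Nkd1 at 91.6%.

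After subtraction of the mean of each replicate number, Axin2 and Rnf43 followed each other most closely of the 36 pairs of genes, with a Pearson r of 0.964 over the 9 libraries. Lgr5 went with Lgr6 (0.910) and Znrf3 (0.905), and Tcf7l1 with Tcf7l2 (0.792). Tcf7l2 ran against Rnf43 (-0.843) and Axin2 (-0.773), and Axin2 against Lgr5 (-0.672). All pairs share the same libraries and scaling, so these values only describe the 9 libraries. The tested genes most like Axin2 by this measure were Sbsn (0.991), Zfp36l2 (0.988), Trmt44 (0.987), Brpf1 (0.986) and Spo11 (0.986), and the most like Lgr5 were Vav2 (0.992), Kcnj14 (0.991), Slc35f1 (0.989), B230303O12Rik (0.988) and Kbtbd8 (0.985).

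Of 113 other genes of the pathway, listed by role, 93 were tested. By 1 h, 4 were higher and 3 lower, which is 7.53% of those tested beside 3.51% of all tested genes. By 6 h, 25 were higher and 26 lower (54.8%, beside 34.9%), and at 6 h against 1 h 17 were higher and 25 lower (45.2%, beside 35.6%). Without the block, edgeR called 1, 2 and 0 of the 93, the last with 14 at an unadjusted p under 0.05, and DESeq2 without the block called 2, 8 and 8. Unless said otherwise, the adjusted p-values of the genes named next are Benjamini-Hochberg values from edgeR with the block.

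**Figure D5:**
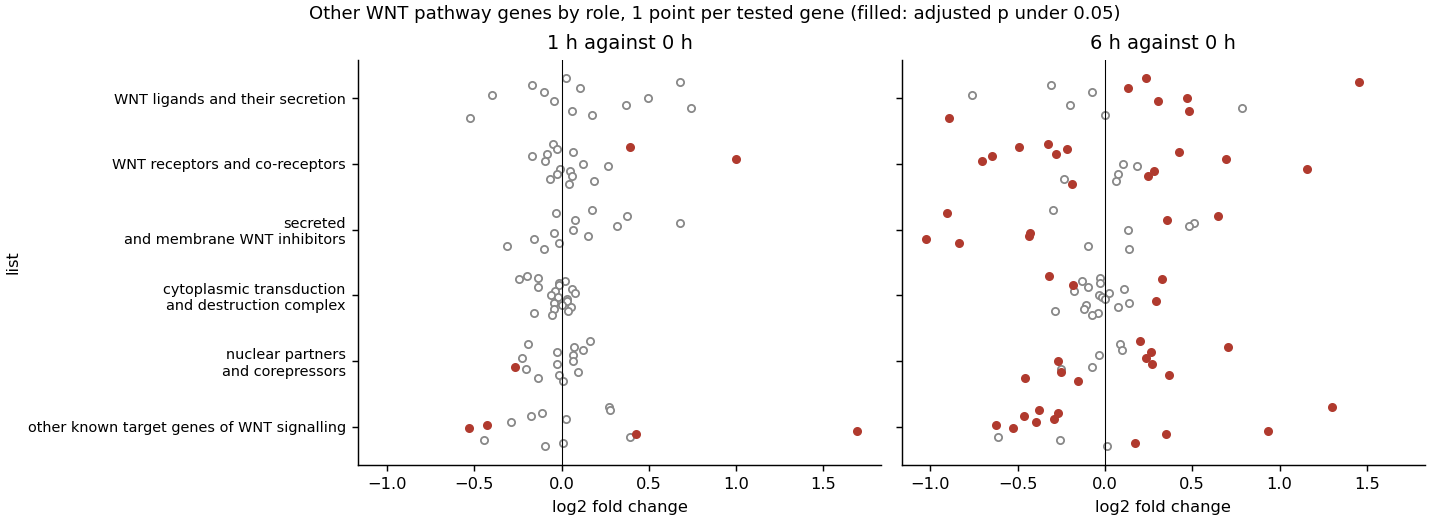
Log2 fold change (horizontal axis) of 1 h and of 6 h against 0 h for each of the 93 tested genes of the wider pathway, in rows by role (vertical axis, with a gene of 2 lists drawn in the first only). Filled points passed an adjusted p of 0.05, which 7 genes did at 1 h and 51 at 6 h, on both sides of 0.

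The Frizzled receptors, which RNF43 and ZNRF3 act on, had both the largest rises and the largest falls among the receptors. Of 17 receptors and co-receptors, 2 rose at 1 h (11.8%, beside 3.51% of all tested genes). At 6 h against 0 h, 5 were higher and 7 lower (70.6%, beside 34.9%). Fzd5 had 11.5 ± 1.30, 23.4 ± 6.99 and 18.7 ± 3.61 CPM in order of time and rose at 1 h (log2 fold change 1.00, SE 0.09, edgeR adjusted p = 4.6e-05). Fzd1 rose at 1 h and fell at 6 h, with 51.9 ± 11.1, 67.9 ± 12.1 and 36.5 ± 4.49 CPM at the 3 times (edgeR adjusted p = 0.00243 at 1 h and 4.6e-05 at 6 h against 0 h). By 6 h Fzd9 had risen (log2 fold change 1.16, edgeR adjusted p = 6.7e-06) and Fzd4 had fallen (-0.64, 2.5e-05). Fzd6, at a mean of 0.965 CPM, had also fallen by 6 h (-0.71, edgeR adjusted p = 0.0103). Ryk, the receptor with the highest level per kb, fell by 0.19 on the log2 scale by 6 h (edgeR adjusted p = 0.0110).

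Among ligands and secretion genes, 13 of 25 were tested, and 0 changed at 1 h against 0 h (beside 3.51% of all tested genes). At 6 h against 0 h, 6 were higher and 1 lower (53.8%, beside 34.9% of all tested genes). Wnt7a (log2 fold change 0.48, edgeR adjusted p = 3.1e-05), Wnt5a (0.31, 0.000494) and Wnt4 (0.47, 0.0375) rose, and Wnt9a fell (-0.89, 0.00316). Averaged over all libraries, Wnt7b had the highest level per kb of the ligands, though close to Wnt5a (24.2 and 23.9 CPM per kb). The log2 fold change of Wnt7b was 0.0032 at 6 h against 0 h. Of 13 tested inhibitors that are secreted or in the membrane, 0 changed at 1 h, and 2 were higher and 5 lower at 6 h (53.8%, beside 34.9%). Shisa2 (-1.03, edgeR adjusted p = 0.000515), Shisa3 (-0.84, 4.8e-06) and Sfrp4 (-0.44, 0.0275) fell, and Frzb (0.65, 0.00850) and Kremen1 (0.35, 0.0003) rose. Shisa3 also differed widely between replicates, at 55.1 ± 59.0 CPM at 0 h and 30.1 ± 30.9 CPM at 6 h. Its edgeR adjusted p without the block was 0.765.

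Of 21 genes of the cytoplasmic part of the pathway, 0 changed at 1 h against 0 h (beside 3.51% of all tested genes). At 6 h against 0 h, 2 of the 21 were higher and 2 lower (19.0%, beside 34.9%). Dvl2 (log2 fold change 0.29, edgeR adjusted p = 0.00094) and Apc2 (0.33, 0.0460, higher in 2 of 3 replicates) were higher, and Amer1 (-0.32, 0.00164) and Csnk1a1 (-0.19, 0.00992) lower. Ctnnb1, which encodes beta-catenin, had the highest level of this list, 214 CPM per kb, and its log2 fold change was -0.02 at 1 h and -0.02 at 6 h against 0 h (edgeR adjusted p = 0.867 and 0.827). Of 15 nuclear partners and corepressors, 1 was lower at 1 h (6.67%, beside 3.51%), and 6 were higher and 4 lower at 6 h (66.7%, beside 34.9%). Bcl9l (0.70, edgeR adjusted p = 9.2e-05), Tle2 (0.37, 0.000201), Pygo1 (0.27, 0.00421) and Aes (0.20, 0.0131) rose by 6 h and Tle3 (-0.46, 0.000363) fell, while Pygo2 fell at 1 h (-0.27, 0.0197). The calls for Apc2 and Sfrp4 were lost in DESeq2 with the block, and those for Apc2, Wnt4 and Aes once GC and length trends were removed.

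Other known targets of WNT signalling moved in both directions. In the first hour, 2 of 18 were higher and 2 lower (22.2%, beside 3.51% of all tested genes). At 6 h, 4 were higher and 7 lower (61.1%, beside 34.9%). Prickle1, a planar polarity gene, was at 3.18 ± 0.388, 10.3 ± 0.430 and 6.12 ± 1.54 CPM and rose by 1.69 on the log2 scale at 1 h (SE 0.11, edgeR adjusted p = 2.3e-06), a call also made without the block (0.0417). Myc fell at 1 h and was as low at 6 h, with 109 ± 7.78, 76.0 ± 12.7 and 75.7 ± 9.68 CPM (edgeR adjusted p = 0.00241 and 0.000236 against 0 h), while Axin2 was low at 1 h alone. Id2 fell at both times (-0.43 and -0.63, edgeR adjusted p = 0.000490 and 1.8e-06), and Sox9 rose at both (0.43 and 0.35, 0.00118 and 0.000454). The cyclin genes Ccnd2 (-0.46, edgeR adjusted p = 0.000153) and Ccnd1 (-0.27, 0.00216), the latter at 348 CPM per kb the highest of the list, fell by 6 h.

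Markers of cell types were read in the same libraries. All 10 NSC markers had a mean of at least 1 CPM, and their summed level was between 6657 and 8307 CPM at 0 h and between 5499 and 7409 CPM at 6 h, with 3 higher and 3 lower by 6 h. Counts of markers at 6 h stand beside 17.4% of all tested genes higher and 17.5% lower. At 6 h against 0 h, where Lgr5, Lgr6 and Tcf7l2 were lower, 5 of 8 neuroblast and neuron markers were higher (summed level 968 to 1492 CPM at 0 h and 1007 to 1579 CPM at 6 h, with Dcx and Stmn2 below 1 CPM). Likewise 5 of 8 markers of the oligodendrocyte lineage were higher (1696 to 2294 CPM and 2170 to 2518 CPM, with Sox10, Mbp and Mog below 1 CPM), as were 2 of 7 astrocyte markers with 1 lower (827 to 1048 CPM and 1033 to 1217 CPM). Their part in the results for the 10 genes was not tested. All 8 microglial markers were below 1 CPM, with Itgam and C1qa at 0, and their sum was at most 0.351 CPM at 0 h, 0.570 CPM at 1 h and 0.317 CPM at 6 h. Only 1 of the 8 had enough counts to be tested, and it was lower by 6 h. Endothelial and pericyte markers summed to between 5.39 and 7.43 CPM at 0 h and between 3.61 and 9.32 CPM at 6 h (5 of 8 tested, 1 higher and 3 lower). Ependymal markers summed to between 47.4 and 88.5 CPM and between 39.6 and 61.2 CPM (4 of 6 tested, 2 lower). The part of these cell types in the results for the 10 genes was not tested either. At 1 h against 0 h, 1 of the 10 NSC markers passed and was lower, and no marker of the other lists passed. Over all tested genes, 1.36% were higher and 2.14% lower in that comparison. The part of this marker in the results for the 10 genes was not tested.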

How the data were processed

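RNA-seq libraries of NSCs from 3 times of differentiation (0 h, 1 h or 6 h, 3 replicates each) were analysed. The authors deposited raw counts of reads per Ensembl gene for each library. Stranded mRNA libraries were sequenced, aligned to mm10 (GRCm38) with STAR 2.5.3a and not normalised, and the strand setting of the counting is not given in the sources used here. The submitters' notes also name FastQC and DESeq2 1.22.1. Groups and replicate numbers were taken from the sample labels, which give the same numbers at each time.

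The tests were run with edgeR 4.0.16 or, as an alternative, DESeq2 1.42.0 under R 4.3.3. Figures were drawn with matplotlib 3.10.9 (Python 3.11.15). Genes were kept with filterByExpr (minimum count 10, minimum total count 15), libraries were scaled with TMM, and glmQLFit and glmQLFTest were run on all 9 libraries with time and replicate number as terms. P-values of the 18858 genes kept were adjusted by the Benjamini-Hochberg method (threshold 0.05). The study's methods name a DESeq2 Wald test and do not state its design or covariates. Here the number was a block, since the rule for these genes pairs libraries by letter. With time means removed, libraries of equal number correlated at 0.733 to 0.800 (9 pairs) and those with other numbers at -0.462 to -0.314 (18 pairs). Removing the means makes the deviations within a time cancel out. The negative values therefore follow from the positive ones and add no separate evidence. What a shared number stands for is not given in the sources used here. The common biological coefficient of variation was 0.0627 with the block and 0.277 without. The edgeR fit with the block was also run on counts simulated from that same model, for 6 h against 0 h only. Such a run cannot test whether the block is right, and its outcome is not used here.

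Symbols, positions and merged exon lengths come from the GENCODE M21 annotation, which held 48144 of the 48526 identifiers. Upstream sequences are from RefSeq (GRCm38.p6), with an entry for 8 of the 10 genes. Shares of spread and correlations used log2 CPM with a prior count of 2. The genes, the lists and the alternatives were chosen with earlier results of these data known. Apart from the 10 genes, each list gives up to 4 genes with the largest change past the threshold at 6 h against 0 h, any gene past it at 1 h (both from genes averaging 1 CPM or more) and the gene with the highest CPM per kb. For Axin2 and Lgr5 the 5 genes with the highest Pearson r are named. The alternatives were no block, DESeq2 with and without the block, RLE scaling, library totals, no filter, a mean of at least 1 CPM, only the 6 libraries compared, trends in GC content and length removed (4 spline degrees of freedom, known for 99.6% of genes), and leaving out each library or each replicate number. Splicing was not analysed here, and counts per gene do not separate spliced transcripts from those that keep an intron. The study reports Lgr5 among genes whose transcripts keep an intron once differentiation is induced.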

Additional observations from a re-analysis of the deposited data

How the results depend on the processing

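Each log2 fold change of the 9 tested genes was refitted in 21 ways. Of 561 values, 487 kept their direction and their side of the threshold, 40 kept the direction and lost the call, 22 gained one and 12 changed sign. Of the 10 genes, 0 were called at 1 h against 0 h and 0 at 6 h against 0 h with no replicate block in edgeR, in place of 1 and 4, and 1 at 6 h against 1 h in place of 6. DESeq2 with no replicate block called 1 at 6 h against 0 h and 1 at 6 h against 1 h, DESeq2 with the block called 2 at 1 h against 0 h, and no filter on low counts gave 3 there. For the 93 other pathway genes (7, 51 and 42 calls), the counts were 1, 2 and 0 with no replicate block, 2, 8 and 8 in DESeq2 with no replicate block, and 15 at 1 h against 0 h with no filter. Over all tested genes the fit with the block called 661, 6581 and 6710, edgeR with no replicate block 8, 456 and 404, DESeq2 with no replicate block 99, 1742 and 1695, and no filter 1369 at 1 h against 0 h. With no filter, the edgeR adjusted p of Axin2 at 6 h against 1 h was 2.5e-32 in place of 7.1e-06. Its log2 fold change was 0.79 in place of 0.78. The p-values of that fit are thus not on the scale of the main fit, and calls gained only there carry less weight.

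Leaving out 1 library gave between 1 and 2 calls among the 10 genes at 1 h against 0 h, 2 and 6 at 6 h against 0 h, and 4 and 6 at 6 h against 1 h. Leaving out 1 replicate number gave between 1 and 2, 2 and 5, and 3 and 6. At 6 h against 0 h the count was 2 without 6 h replicate 2 and 2 without replicate 2, and without replicate 2 it was 3 at 6 h against 1 h. At 1 h against 0 h it was 2 without 1 h replicate 3, 6 h replicate 3 or replicate 3. For the other pathway genes the ranges were 6 to 9, 35 to 57 and 33 to 49 without 1 library, and 6 to 8, 35 to 50 and 29 to 44 without 1 number. All tested genes with a call at 1 h against 0 h numbered 184 without replicate 2 and 270 without replicate 1. Leaving out replicate 1, 2 or 3 of 0 h gave 257, 213 and 219, and leaving out replicate 1 of 1 h gave 327. At 6 h against 0 h they were 4350 without 0 h replicate 2 and 3656 without replicate 2, and at 6 h against 1 h 4132 without replicate 2.

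The signs that turned belonged to 3 values near 0. That of Lgr4 at 6 h against 0 h (log2 fold change 0.01) ran from -0.020 to 0.063 over the fits that left out a library or a number, that of Lgr5 at 1 h against 0 h (0.05) from -0.026 to 0.17, and that of Nkd1 at 6 h against 1 h (0.03) from -0.053 to 0.12. The last was also -0.0030 in DESeq2 with no replicate block and -0.052 with the replicate block and GC and length trends removed. Depth limits Lgr6, Rnf43 and Lef1 most, with at most 66, 157 and 7 counts in a library. The cause of these differences was not tested.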
